A study of Mus musculus with 12 samples.

Results

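The immunoglobulin constant region genes encode the invariant ends of antibody heavy and light chains, and their transcripts show which antibody isotypes the B lineage cells of a tissue carry. They were followed in bulk RNA sequencing of 12 tumours grown from CR705 cells, a pancreatic cancer line of the mouse. The study asked how loss of the aryl hydrocarbon receptor in the cancer cells relates to immune cells in the tumour. In 6 tumours the line was wild type (WT) and in 6 it was labelled a knockout of Ahr, the gene of that receptor (AHRKO). The list held 10 genes taken by symbol, and earlier results of these data were known when it was made. They were the heavy chain genes Ighm, Ighd, Ighg3, Ighg1, Ighg2b, Ighg2c and Igha, and the light chain genes Igkc, Iglc1 and Iglc2. By Ensembl identifier, 9 of the 10 matched a row among the 43432 genes counted. Iglc1 (ENSMUSG00000105906) matched none and was not analysed here. The labels give no treatment by compound for any tumour, no strain or age of the host animals, no method of knockout and no number of clones. Nor do they state that a different animal carried each tumour; a p-value here measures only the spread between these samples, which may be technical.

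A B cell first makes IgM and IgD, whose constant regions come from Ighm and Ighd by alternative processing of the same transcript. After activation it can cut out the DNA between Ighm and a downstream constant gene, and from then on it makes IgG, IgA or IgE with the same variable region. Plasma cells are the antibody-secreting end of this lineage and fill much of their messenger RNA pool with heavy and light chain transcripts, so a small number of them can dominate the reads of these genes in a tissue. In bulk samples, fewer cells of a type and less RNA per cell cannot be told apart.

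The heavy chain genes lie in a single row on the minus strand of chromosome 12 (mm10; gene boundaries from GENCODE release M21). Ighm (ENSMUSG00000076617) is at chr12:113418558-113422730, followed by Ighd (ENSMUSG00000104213) at chr12:113406604-113416324 and Ighg3 (ENSMUSG00000076615) at chr12:113356224-113361232. Ighg1 (ENSMUSG00000076614) is at chr12:113325240-113330523 and Ighg2b (ENSMUSG00000076613) at chr12:113302965-113307933. Ighg2c (ENSMUSG00000076612) is at chr12:113285325-113288932 and Igha (ENSMUSG00000095079) comes last at chr12:113254830-113260236. Igkc (ENSMUSG00000076609), the kappa light chain constant gene, is at chr6:70726435-70726966 on the plus strand. Iglc2 (ENSMUSG00000076937), a lambda light chain constant gene, is at chr16:19198396-19200351 on the minus strand and overlaps the joining segment Iglj2.

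The 4 IgG subclass genes are close relatives, so whether a read can be given to one of them depends on how far their exons differ. The hinge, the flexible stretch between the arms and the stem of the antibody, is where they differ most visibly, and its exon is shown for each gene 5′ to 3′ with the cysteine codons of the reading frame in capitals. Cysteines of the hinge include those that form the bridges between the heavy chains.
Ighg3 hinge exon, chr12:113360529-113360576, minus strand: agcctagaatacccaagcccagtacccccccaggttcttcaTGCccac
Ighg1 hinge exon, chr12:113329844-113329882, minus strand: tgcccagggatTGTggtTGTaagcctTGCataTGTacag
Ighg2b hinge exon, chr12:113307261-113307326, minus strand: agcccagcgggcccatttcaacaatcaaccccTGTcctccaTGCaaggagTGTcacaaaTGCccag
Ighg2c hinge exon, chr12:113288263-113288325, minus strand: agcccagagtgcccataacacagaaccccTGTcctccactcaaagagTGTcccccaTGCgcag
The hinge exon was 48 bases with 1 cysteine codon in Ighg3 and 39 bases with 4 in Ighg1. It was 66 bases with 4 in Ighg2b and 63 bases with 3 in Ighg2c.

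The first constant exon (CH1), which pairs with the light chain, was 291 bases in all 4 genes. It is shown for Ighg1 and Ighg2b, the pair with the most alike CH1 exons, with each base that differs between them in capitals.
Ighg1 CH1 exon, chr12:113330233-113330523, minus strand: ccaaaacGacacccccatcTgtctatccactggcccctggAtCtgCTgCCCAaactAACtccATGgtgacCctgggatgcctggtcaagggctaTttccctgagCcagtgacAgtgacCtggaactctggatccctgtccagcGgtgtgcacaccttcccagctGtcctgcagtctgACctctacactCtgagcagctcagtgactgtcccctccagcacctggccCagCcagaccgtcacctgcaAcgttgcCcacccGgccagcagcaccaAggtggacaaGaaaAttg
Ighg2b CH1 exon, chr12:113307643-113307933, minus strand: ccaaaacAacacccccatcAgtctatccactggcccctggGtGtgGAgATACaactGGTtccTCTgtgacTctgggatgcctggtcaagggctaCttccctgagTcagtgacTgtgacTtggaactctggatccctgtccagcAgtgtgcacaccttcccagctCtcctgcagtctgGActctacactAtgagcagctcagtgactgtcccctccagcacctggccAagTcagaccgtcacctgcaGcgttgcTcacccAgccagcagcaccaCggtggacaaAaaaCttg
These exons differed at 34 of 291 bases, an identity of 88.3%. Ighg1 and Ighg2c were 88.0% identical there and Ighg2b and Ighg2c 87.6%, while Ighg3 was between 78.4% and 79.0% identical to the other three. Differences were spread densely enough that few stretches were shared: of all runs of 50 bases in the annotated transcripts of each gene, 0.39% also occurred in another gene for Ighg1, 1.58% for Ighg3, 4.15% for Ighg2b and 5.49% for Ighg2c. All of Ighg2c's shared runs were with Ighg2b. Ighm, Ighd, Igha and Igkc shared none, and Iglc2 shared 7.65% with Iglc3. The sources used here do not give the read length or how reads with several matches were handled, so values of Ighg2b and Ighg2c are the less certain for what they share.

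The libraries held 19293174 to 35881469 counts in WT and 14772343 to 19944273 in AHRKO, and values below are counts relative to the TMM-scaled total of the library (CPM). Of 15449 genes with enough counts to be tested, 2451 were higher and 2106 lower in AHRKO (adjusted p under 0.05, edgeR's quasi-likelihood test), and the median log2 fold change was 0.02. Transcript of Ahr, a transcription factor activated by ligands, did not separate the groups, at 111.7 ± 8.18 CPM (SD, n = 6) in WT and 102 ± 30.6 in AHRKO (adjusted p = 0.606), so gene counts do not check the knockout labels.

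Of the 9 genes counted, 7 passed the filter on low counts and 6 of these were higher in AHRKO, 0 were lower and Igha passed no threshold. Of all tested genes, 15.9% were called higher. The median log2 fold change of the 7 was 6.63. Ighg1, Ighg2b and Ighg3 passed the filter mostly through AHRKO libraries, since most WT libraries held few counts of them. The number called higher and this median are therefore partly set by the filter. Ighg2b was the only one of the 9 in which every AHRKO library lay above every WT library, against 6.03% of all tested genes. Ighd and Iglc2 had too few counts for the test. Heavy chain transcripts, summed over the 7 genes, had a median of 63.0 CPM in WT, from 5.88 to 232.1, and a median of 1148 CPM in AHRKO, from 57.5 to 4174. The highest of the 12 libraries was 709 times the lowest, and libraries of the same group differed by up to 39.4 times in WT and 72.6 times in AHRKO.

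**Figure D1:**
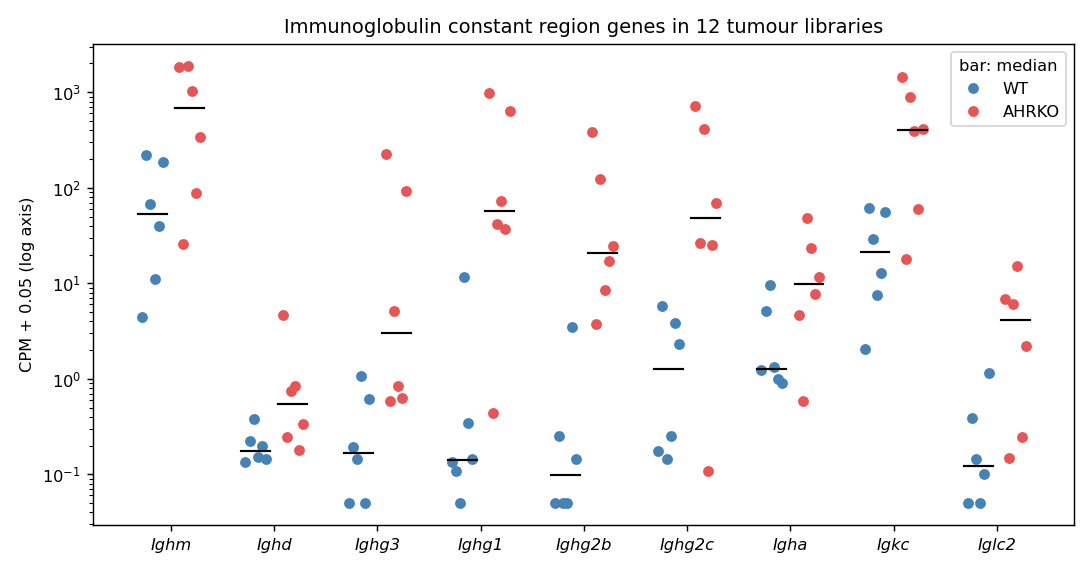
Level of each of the 9 counted genes in each library, as CPM plus 0.05 on a log axis, with 1 point per library coloured by group and a bar at the group median. The AHRKO medians lie above the WT medians for all 9 genes, and only for Ighg2b do the points of the groups not overlap.

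Ighm, the constant gene of IgM, was the most abundant heavy chain gene. Its level in WT ranged from 4.41 to 220.8 CPM around a median of 53.7, and in AHRKO from 25.8 to 1890 around a median of 680.5. AHRKO replicates 1, 3, 4 and 6 exceeded every WT library, whereas AHRKO replicates 2 and 5 lay inside the WT range, so the groups overlapped. The mean was 88.1 ± 92.5 CPM (SD, n = 6) in WT and 869 ± 853 in AHRKO, a log2 fold change of 3.30 ± 1.11 (SE; adjusted p = 0.0407, edgeR's quasi-likelihood test). This call was lost on leaving out WT replicate 1, 3, 4, 5 or 6 or AHRKO replicate 1, 3 or 4, although the fold change then stayed between 2.92 and 3.66, and limma-voom did not call it (log2 fold change 2.45, adjusted p = 0.124).

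Ighd, the constant gene of IgD that marks mature naive B cells, was close to the limit of detection. It had 2 to 7 counts in each WT library. In AHRKO it had 2 to 14 counts in replicates 2 to 6 and 78 in replicate 1. The mean was 0.155 ± 0.0906 CPM (SD, n = 6) in WT and 1.12 ± 1.74 in AHRKO, and the gene was not tested. Per kilobase of exon, Ighm exceeded Ighd by 52.9 to 1960 times in the WT libraries and by 134 to 2772 times in AHRKO.

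Ighg2b, one of the IgG subclasses, separated the groups fully. Its counts in WT replicates 1 to 6 were 0, 7, 0, 0, 70 and 2, and in AHRKO replicates 1 to 6 they were 6492, 76, 1814, 150, 267 and 427. The level in WT ran from 0 to 3.47 CPM with a median of 0.0476, and in AHRKO from 3.68 to 385.2 with a median of 20.9. The gap between the groups was narrow, since WT replicate 5 at 3.47 CPM nearly reached AHRKO replicate 2. The log2 fold change was 7.29 ± 1.51 (SE; adjusted p = 0.00452, edgeR's quasi-likelihood test). It was 5.90 without AHRKO replicate 1 and 10.22 without WT replicate 5, and the call held in all 20 alternatives run for it.

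Ighg2c takes the place of Ighg2a in mice of the C57BL/6 type, and its switching is classically driven by interferon gamma. Its WT levels ran from 0.0932 to 5.71 CPM with a median of 1.22. In AHRKO replicates 1, 2, 3, 5 and 6 the level was 721, 26.3, 407.7, 25.4 and 69.1 CPM, above every WT library. AHRKO replicate 4 had a single count, 0.0570 CPM, the lowest of all 12 libraries, although it held 17926 counts of Ighm. The log2 fold change was 6.63 ± 1.53 (SE; adjusted p = 0.0076, edgeR's quasi-likelihood test). Without AHRKO replicate 1 it was 5.62 and without WT replicate 2 it was 7.37, and limma-voom did not call it (log2 fold change 5.26, adjusted p = 0.08).

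Ighg1, the subclass classically favoured by interleukin 4, was nearly absent from 5 of 6 WT libraries. WT replicates 1, 2, 3, 5 and 6 had 0 to 6 counts and WT replicate 4 had 227, or 11.6 CPM. In AHRKO replicates 1 to 6 its level was 983.4, 0.387, 42.0, 72.5, 36.7 and 632.2 CPM. AHRKO replicate 2, with 8 counts, was the one AHRKO library below the highest WT library. The log2 fold change was 7.25 ± 1.81 (SE; adjusted p = 0.011, edgeR's quasi-likelihood test), and without WT replicate 4 it was 11.44, without AHRKO replicate 1 it was 6.39. It was not called by limma-voom (adjusted p = 0.12).

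Ighg3, the IgG gene nearest to Ighd on the chromosome, was high in only a pair of libraries. Its WT level ran from 0 to 1.02 CPM with a median of 0.118. In AHRKO it was 223.2 CPM in replicate 1 and 92.3 in replicate 6, while the other 4 libraries had 0.532 to 5.08. The log2 fold change was 7.52 ± 1.80 (SE; adjusted p = 0.00889, edgeR's quasi-likelihood test), it was 6.09 without AHRKO replicate 1 and 8.36 without WT replicate 4, and limma-voom did not call it (log2 fold change 4.36, adjusted p = 0.0564). These fold changes rest on 0 to 20 counts of Ighg3 in each WT library.

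Igha, the constant gene of IgA, the antibody of mucosal surfaces, gave no call. Its level in WT ran from 0.857 to 9.60 CPM with a median of 1.23, and in AHRKO from 0.532 to 47.7 with a median of 9.70. The mean was 3.15 ± 3.54 CPM (SD, n = 6) in WT and 15.9 ± 17.4 in AHRKO, and the log2 fold change was 2.32 ± 0.90 (SE; adjusted p = 0.0681, edgeR's quasi-likelihood test). It was 3.05 without WT replicate 3, where it passed the threshold (adjusted p = 0.0318), and 1.58 without AHRKO replicate 3 (adjusted p = 0.191). The threshold was also passed without AHRKO replicate 1 (adjusted p = 0.0445), without AHRKO replicate 2 (adjusted p = 0.0323) and with DESeq2 (adjusted p = 0.0144). AHRKO replicate 2, at 0.532 CPM, was the lowest of the 12 libraries for this gene.

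Of the light chain genes, only Igkc and Iglc2 could be counted, since Iglc1, Iglc3 and Iglc4 matched no row, and Igkc carried nearly all counts of the pair. Its level in WT ran from 2.02 to 62.0 CPM with a median of 20.97, and in AHRKO from 17.9 to 1448 with a median of 404.6. AHRKO replicate 2 lay inside the WT range, AHRKO replicate 5, at 60.0 CPM, just under its top, and the other four above it. The mean was 28.1 ± 25.5 CPM (SD, n = 6) in WT and 537.7 ± 545.5 in AHRKO, a log2 fold change of 4.25 ± 1.05 (SE; adjusted p = 0.0104, edgeR's quasi-likelihood test), which was 3.65 without AHRKO replicate 1. Iglc2 had 0 to 23 counts in the WT libraries. In AHRKO replicates 1 to 6 it had 114, 2, 88, 268, 3 and 37 counts, a mean of 5.09 ± 5.74 CPM against 0.263 ± 0.427 in WT (SD, n = 6), and it was not tested.

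**Figure D2:**
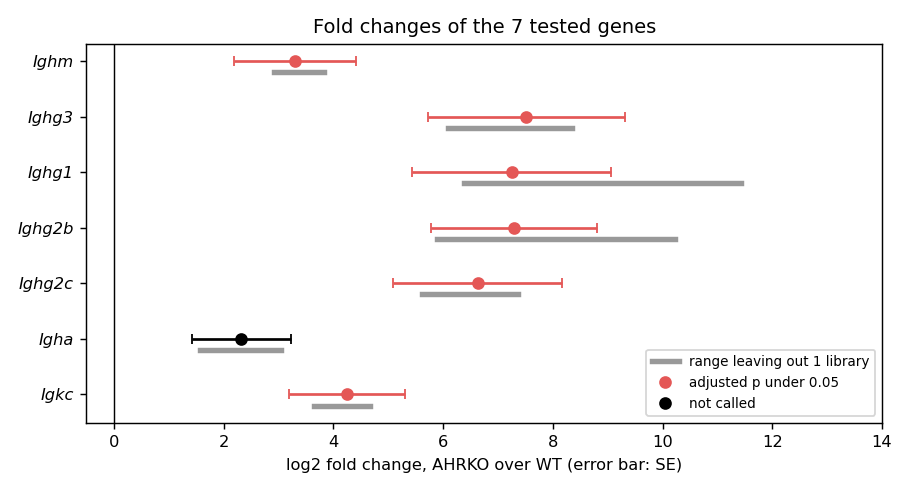
Log2 fold change of AHRKO over WT for the 7 tested genes, with the SE as error bar and the range over fits that leave out 1 library. All 7 estimates lie above 0, from 2.32 for Igha to 7.52 for Ighg3, and the IgG genes lie above Ighm, Igkc and Igha.

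Fold changes of different genes share libraries, and no test of Ighm against the IgG genes was made on them; the isotype shares within each library address that contrast. For them, counts were divided by the length of all annotated exons of the gene in kilobases, and each heavy chain gene was expressed as a percentage of the sum over the 7. The summed counts behind a library's shares ran from 140 in WT replicate 1 to 70348 in AHRKO replicate 1. Ordered by the median level per kilobase, WT libraries ran from Igkc (39.4 CPM per kilobase) and Ighm (28.5) down to Ighg2c (0.921), Igha (0.460), Iglc2 (0.117), Ighd (0.0661), Ighg3 (0.0470), Ighg1 (0.0346) and Ighg2b (0.0178). In AHRKO the order was Igkc (760.6 CPM per kilobase), Ighm (360.8), Ighg2c (35.97), Ighg1 (22.1), Ighg2b (7.82), Iglc2 (6.69), Igha (3.64), Ighg3 (1.17) and Ighd (0.257). In both groups the ranges over the 6 libraries overlapped between every pair of neighbours in the order.

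The IgG genes together made up a larger share of heavy chain transcripts in most AHRKO libraries than in most WT libraries. In WT the IgG share was 0.269% to 44.3% with a median of 3.96%, and WT replicate 4 stood above the other WT libraries, which reached 16.6%. In AHRKO replicates 1 to 6 it was 54.0%, 60.7%, 26.7%, 5.41%, 44.8% and 64.9%. Replicate 4 was the only AHRKO library under the second highest WT library, and its 5.41% rested on 1437 IgG counts of 19782. The mean was 11.9% ± 16.9 (SD, n = 6) in WT and 42.8% ± 22.8 in AHRKO, a difference of 30.9 percentage points (exact permutation test, two-sided, p = 0.0238, adjusted p = 0.101 over 9 shares). The difference thus did not pass the threshold after adjustment, and it did on leaving out AHRKO replicate 4 (38.4 points, adjusted p = 0.039, exact permutation test).

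The Ighm share mirrored this, since the shares of a library sum to 100%. It was 51.0% to 97.7% in WT and 34.2% to 93.0% in AHRKO, with means of 82.4% ± 17.0 and 55.9% ± 22.5 (SD, n = 6). The difference was -26.5 percentage points (exact permutation test, p = 0.0433, adjusted p = 0.101), and -34.0 without AHRKO replicate 4 (adjusted p = 0.039). AHRKO replicate 4, at 93.0%, was the only AHRKO library above the WT median. Ighm was the leading heavy chain gene in 10 of 12 libraries; Ighg2c led in AHRKO replicate 2 and Ighg1 in AHRKO replicate 6.

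**Figure D3:**
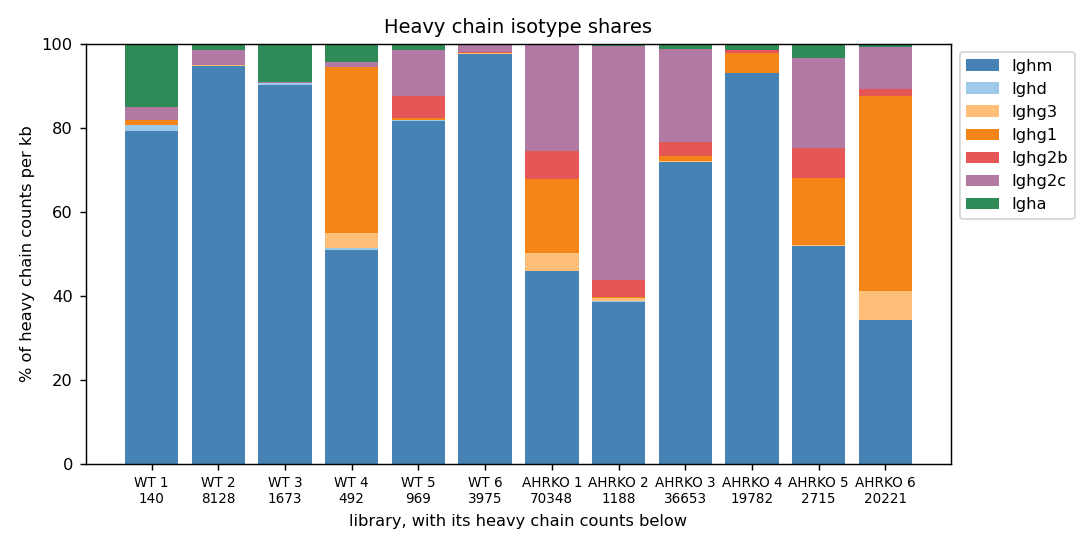
Share of each of the 7 heavy chain genes in each library, as a percentage of heavy chain counts per kilobase, with the library's heavy chain counts under its name. Ighm fills at least 72.0% of the bar in WT replicates 1, 2, 3, 5 and 6 and in AHRKO replicates 3 and 4, and the IgG genes fill between 44.8% and 64.9% in AHRKO replicates 1, 2, 5 and 6.

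Of the subclasses, Ighg2c showed the largest difference of mean share. It made up 3.50% ± 3.92 of heavy chain transcripts in WT and 22.4% ± 18.9 in AHRKO (SD, n = 6), a difference of 18.9 points (exact permutation test, p = 0.0281, adjusted p = 0.101). It was 0.176% to 11.1% in WT and 9.89% to 55.8% in 5 AHRKO libraries, against 0.007% in AHRKO replicate 4. The difference was 12.3 points without AHRKO replicate 2 (adjusted p = 0.148) and 23.4 without AHRKO replicate 4 (adjusted p = 0.039, exact permutation test).

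The Ighg2b share was 0.86% ± 2.06 in WT and 3.90% ± 2.65 in AHRKO (SD, n = 6; exact permutation test, p = 0.0476, adjusted p = 0.101). The Ighg1 share was 6.83% ± 15.9 and 14.4% ± 17.3 (p = 0.457, adjusted p = 0.481, exact permutation test). This share was spread as widely within the groups as between them: WT replicate 4 reached 39.4% while the other WT libraries had at most 1.10%, and AHRKO replicates 6, 1 and 5 had 46.3%, 17.7% and 15.9% while the others had 0.42% to 4.80%. The difference of 7.56 points was 1.17 without AHRKO replicate 6 and 14.1 without WT replicate 4. The Ighg3 share was 0.657% ± 1.43 in WT and 2.03% ± 2.89 in AHRKO (p = 0.201, adjusted p = 0.259, exact permutation test), and the difference of 1.37 points was 0.383 without AHRKO replicate 6.

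Igha and Ighd shares had lower means in AHRKO. Igha made up 5.24% ± 5.70 of heavy chain transcripts in WT and 1.25% ± 1.10 in AHRKO (SD, n = 6; exact permutation test, p = 0.104, adjusted p = 0.156). Its 2 highest shares, 14.9% and 9.03%, were in WT replicates 1 and 3, the first of which had only 28 Igha counts. The Igha difference of -3.99 points was -2.05 without WT replicate 1. Ighd made up 0.472% ± 0.533 in WT and 0.101% ± 0.097 in AHRKO, with all 6 AHRKO libraries under the WT median (exact permutation test, p = 0.0563, adjusted p = 0.101). The difference of -0.371 points was -0.166 without WT replicate 1, which had 2 Ighd counts. Of the 9 shares compared, 4 had an unadjusted p under 0.05 and 0 an adjusted one. The smallest p that the 924 assignments allow is 0.00216.

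Within IgG, the leading subclass differed between tumours. Per kilobase, Ighg2c led in WT replicates 1, 2, 3, 5 and 6 and in AHRKO replicates 1, 2, 3 and 5, and Ighg1 led in WT replicate 4, AHRKO replicate 4 and AHRKO replicate 6. The counts behind WT were small: WT replicates 1 and 3 had 5 and 4 IgG counts, so their leading gene is not resolved. In AHRKO replicate 4, Ighg1 took 1272 of 1437 IgG counts, 88.5% (95% Wilson interval 86.8% to 90.1%), and Ighg2c 1 count, 0.0696% (0.0123% to 0.393%). AHRKO replicate 2 showed the opposite, with 544 of 639 IgG counts from Ighg2c, 85.1% (82.2% to 87.7%). In AHRKO replicate 3, Ighg2c took 5935 of 8435, 70.4% (69.4% to 71.3%).

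The WT tumours differed from each other in the same way. WT replicate 4 had 227 of 251 IgG counts from Ighg1, 90.4% (95% Wilson interval 86.2% to 93.5%), and WT replicate 2 had 200 of 214 from Ighg2c, 93.5% (89.3% to 96.1%). WT replicate 5 held 70 of 152 from Ighg2b, 46.1% (38.3% to 54.0%). The intervals cover counting error only, since reads without molecular identifiers are not independent molecules. The Ighg2c intervals of AHRKO replicates 2, 3 and 4 do not overlap.

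**Figure D4:**
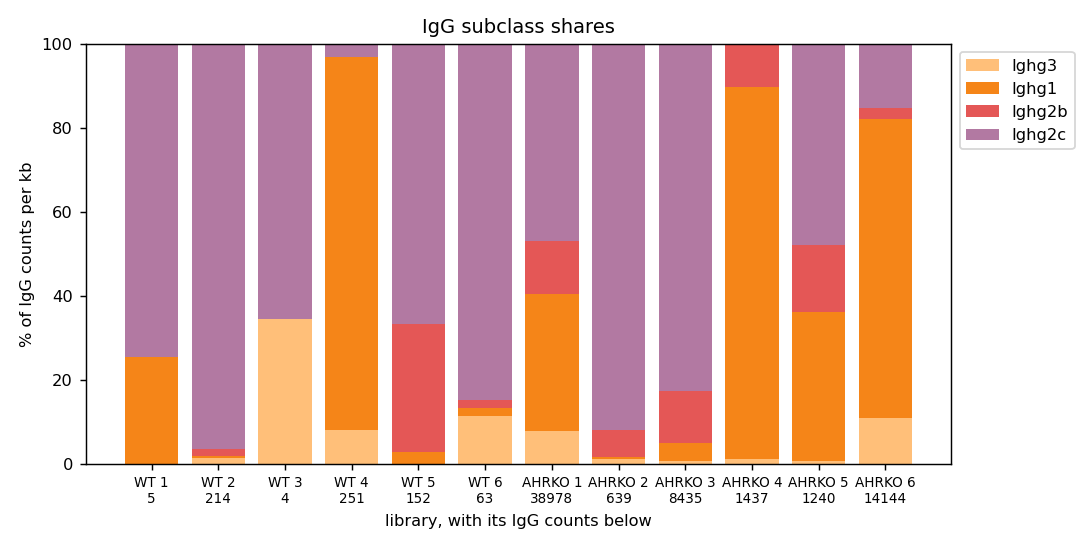
Share of Ighg3, Ighg1, Ighg2b and Ighg2c in each library, as a percentage of IgG counts per kilobase, with the library's IgG counts under its name. Ighg1 fills 88.9%, 88.7% and 71.3% of the bar in WT replicate 4, AHRKO replicate 4 and AHRKO replicate 6, and Ighg2c leads in the other 9 libraries, of which WT replicates 1 and 3 rest on 5 and 4 counts.

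Which subclass led in AHRKO replicates 1 and 5 depended on the length used. Per kilobase of all annotated exons Ighg2c led there, with 47.1% and 47.9% of IgG, because its annotation has 1326 bases of exon while those of Ighg1, Ighg2b and Ighg3 have 2512 to 2678. By the shortest annotated transcript of each gene, 1076 to 1114 bases, Ighg1 led instead with 43.2% and 46.8%. On that basis Ighg1 led in 4 AHRKO libraries and Ighg2c in 2, and in WT replicate 4 Ighg1 also passed Ighm, at 52.5% of heavy chain transcripts.

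The balance of Igkc and Iglc2 varied little. The other lambda genes are not in these sums, so this is not the full lambda share. Of the sum of Igkc and Iglc2, Igkc made up 99.5% ± 0.629 per kilobase in WT and 99.1% ± 1.16 in AHRKO (SD, n = 6; exact permutation test, p = 0.481, adjusted p = 0.481), with Iglc2 as the rest. AHRKO replicate 4 had the largest Iglc2 part, 268 of 7175 counts of the pair, 3.74% (95% Wilson interval 3.32% to 4.2%), followed by WT replicate 6 with 1.94% (1.29% to 2.89%). In the other libraries Iglc2 took at most 0.674%, and it had 0 counts in WT replicates 1 and 4, where the upper bounds were 7.41% and 2.58%. AHRKO replicate 4 thus stood apart from the other AHRKO libraries in its IgG share, in its single Ighg2c count and in its Iglc2 part.

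Heavy and light chain transcripts kept close to a fixed ratio in all libraries. Per kilobase of exon, the summed heavy chain level was 0.727 to 1.06 times the summed level of Igkc and Iglc2 in WT and 0.671 to 1.05 times in AHRKO, while the levels themselves differed by 709 times. Ighm and Igkc had the highest correlation among pairs of the listed genes (Pearson r = 0.975 of log2 CPM over the 12 libraries, given as a description). It was 0.863 for Ighg1 with Ighg3 and 0.827 for Ighg2b with Ighg2c, and lowest, 0.254, for Ighg2c with Igha. All of these points share the library and the difference between groups.

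The gene whose pattern was most like that of Ighm and of Igkc was in both cases Jchain. It encodes the joining chain that links IgM and IgA into polymers. Among 13746 tested genes compared, its log2 CPM had a Pearson r of 0.994 with Ighm over 12 libraries, 0.996 within WT and 0.997 within AHRKO, and of 0.986 with Igkc. For Ighm the next were Mzb1 (0.959), a chaperone of IgM assembly, Klrg1 (0.911), a receptor of cytotoxic lymphocytes, Cd79a (0.894), a signalling chain of the B cell receptor, and Pou2af1 (0.888), a coactivator of immunoglobulin promoters. For Igkc they were Mzb1 (0.972), Ly6c2 (0.941), Klrg1 (0.933) and Pou2af1 (0.924). These values describe likeness over 12 libraries and carry no test.

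Jchain was 0.588, 13.5, 6.76, 1.13, 3.62 and 15.5 CPM in WT replicates 1 to 6 and 184.5, 2.42, 162.7, 89.1, 9.07 and 42.6 CPM in AHRKO replicates 1 to 6. AHRKO replicates 2 and 5 again lay inside the WT range. The log2 fold change was 3.56 ± 1.01 (SE; adjusted p = 0.0196, edgeR's quasi-likelihood test).

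**Figure D5:**
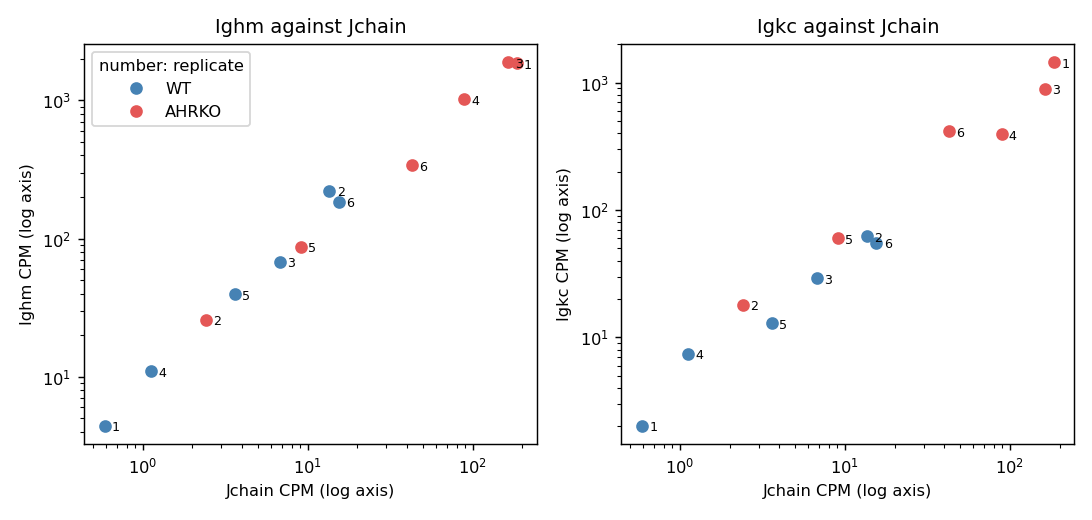
Ighm and Igkc against Jchain, both axes in CPM on log scales, with 1 point per library coloured by group. The points lie close to a line across both groups (r = 0.994 for Ighm and 0.986 for Igkc), and AHRKO replicates 2 and 5 lie among the WT points.

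Among genes of the cells that make antibody, of 18 B cell genes, 11 were tested, 9 were higher and 0 lower, with a median log2 fold change of 1.71 (15.9% of all tested genes were higher). Cd22, an inhibitory B cell receptor, had 2.21 ± 0.43 (SE; adjusted p = 0.0032, edgeR's quasi-likelihood test), Spib, a transcription factor of B cells and plasmacytoid dendritic cells, had 2.72, and Cd79b, the partner of Cd79a, had 2.99. Blk, a B lineage kinase that some other lymphocytes also carry, rose from 0.601 ± 0.448 to 49.2 ± 32.8 CPM (SD, n = 6), with adjusted p = 6.17e-05 by edgeR's quasi-likelihood test. It made up much of the summed level of the list in AHRKO but little in WT. Ebf1 and Cd37, named after their values were seen, led that sum in WT, with means of 18.4 and 9.34 CPM. That sum was 26.1 to 53.0 CPM in WT and 87.9 to 247.7 in AHRKO. It followed the order of the heavy chain sums only in part. AHRKO replicate 1 was highest in both, at 247.7 and 4174 CPM, and WT replicate 1 lowest in both, at 26.1 and 5.88 CPM. AHRKO replicate 3, second highest in heavy chain transcripts at 2518 CPM, had the lowest B cell sum of its group. AHRKO replicate 2, with a heavy chain sum of 57.5 CPM, had a B cell sum of 112.5 CPM. Ebf1 gave no call (log2 fold change -0.007), while Cd37 was called higher (1.71). The defining genes Ms4a1 and Pax5 were too low to be tested, Ms4a1 for example at 0.0909 ± 0.0608 CPM in WT and 0.937 ± 0.938 in AHRKO (SD, n = 6).

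Of 18 plasma cell genes, 17 were tested, 10 were higher and 1 lower, with a median log2 fold change of 0.90. Among all 15449 tested genes, 15.9% were higher and 2106 genes were lower. Sec11c, part of the signal peptidase of secretory cells, had a log2 fold change of 1.56 and Creld2, an endoplasmic reticulum stress gene, of 0.69. Irf4, a transcription factor of plasma cell and T cell differentiation, had 2.87, and Slamf7, a surface receptor of plasma and cytotoxic cells, 3.37. No call was given for 6 genes, among them Prdm1 (-0.14) and Xbp1 (0.21), both named after their values were seen. The lower gene was Sdc1, the plasma cell surface marker CD138, which epithelial cells also carry. It was named after its values were seen and measured 877 ± 69.1 CPM in WT and 593 ± 135 in AHRKO (SD, n = 6). The summed level of the list, mostly from such shared genes, was 1625 to 1893 CPM in WT and 1594 to 1976 in AHRKO.

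Of 26 listed genes of class switch recombination and its repair, 25 matched, 24 were tested, 4 were higher and 2 lower, and the median log2 fold change was -0.03. The 4 of 24 called higher are near the share among all tested genes, of which 15.9% were called higher. Ung, which removes uracil from switch regions, was higher by 1.03, Rnf168, a ubiquitin ligase of the break response, by 0.47 and Batf, a transcription factor, by 1.69. Lig4, the end-joining ligase, had a log2 fold change of -0.55. Proliferating and other cells use most of these genes.

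Of 20 signals that steer switching, 14 were tested, 4 were higher and 0 lower, beside 15.9% higher among all tested genes. They were Cd40, the receptor for T cell help, with a log2 fold change of 2.02, Tbx21, the factor of type 1 responses and of switching to Ighg2c, with 3.79, Il21r with 1.88, and Bcl6, the factor of germinal centres, with 0.37. Tbx21 was low in WT, with a mean of 0.243 CPM. Il4 and Ifng were named after their values were seen. Il4 gave no call (log2 fold change 0.17) and Ifng was too low to be tested. Of 9 genes of follicles and germinal centres, 4 were tested and 3 were higher, namely the homing receptor Cxcr5 (1.03), its ligand Cxcl13 (1.99) and Ccr7 (1.77). S1pr2 had a log2 fold change of -0.21 without a call.

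Of 10 receptors for antibody, 9 were tested, 8 were higher and 0 lower, with a median log2 fold change of 1.77 (15.9% of all tested genes were higher). Trim21, a cytosolic antibody receptor, had 1.54, the IgE receptor chain Fcer1a 2.11, the high-affinity IgG receptor Fcgr1 1.81 and the common signalling chain Fcer1g 1.77. The summed level of the list was 222 to 452 CPM in WT and 306 to 1591 in AHRKO. Genes of recombination and the surrogate light chain, which mark B cell precursors, were too low to be tested. Their summed levels were 0.280 to 0.809 CPM in WT and 0.231 to 3.09 in AHRKO, and Rag2 and Vpreb2 had 0 counts in every library. The highest sum, in AHRKO replicate 1, came from Dntt, named after its values were seen. Dntt measured 0.0501 ± 0.0809 CPM in WT and 0.795 ± 1.15 in AHRKO (SD, n = 6).

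Of the markers of all leukocytes, all 14 were higher in AHRKO, with a median log2 fold change of 1.60 (15.9% of all tested genes were higher). Cd52 (2.33), Coro1a (2.02), Ptpn6 (1.29) and Rac2 (2.02) had the smallest p. Their summed level was 361 to 640 CPM in WT and 618 to 3522 in AHRKO. The heavy chain sums followed its order only in part. AHRKO replicate 1 was highest in both, at 3522 and 4174 CPM, and WT replicate 1 lowest in both, at 360.8 and 5.88 CPM. AHRKO replicate 2, with a summed leukocyte level of 1201 CPM, had a heavy chain sum of 57.5 CPM. That was under WT replicates 2, 3 and 6 at 232.1, 78.0 and 189.2 CPM. AHRKO replicate 5 had the lowest leukocyte level of its group, 617.5 CPM. Its heavy chain sum, 174.7 CPM, was above only that of AHRKO replicate 2 in its group.

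Epithelial markers, of which 0 of 13 passed the threshold, summed to 3972 to 5686 CPM in WT and 3611 to 5120 in AHRKO replicates 2 to 6. They summed to 773.5 CPM in AHRKO replicate 1, the library with the highest heavy chain sum. Muc1 had a log2 fold change of -1.58 and Krt19 of -1.04. Acinar markers, of which only Cela1 was tested (-0.01), summed to 15.2 to 28.0 CPM in WT and 8.01 to 49.9 in AHRKO, with Cela2a, Amy2a5 and Ptf1a at 0. The part of the leukocyte and tumour cell content of each library in the differences above was not tested.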

How the data were processed

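Bulk RNA of 12 tumours was sequenced after poly-T selection, per the labels' protocols, which also describe cultured cells with test compounds that no sample label names. The authors deposited unnormalized counts of reads for each gene, made with HISAT2, SAMtools and HTSeq on mm10, per the submitters' processing notes. The sources used here give no annotation release, strand setting or counting options. The members, gene lists and tests were chosen with earlier results of these data known.

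Genes were filtered with filterByExpr, scaled by TMM and compared with edgeR 4.0.16 (R 4.3.3), two-sided, by its quasi-likelihood test. The p-values were adjusted over the 15449 tested genes by Benjamini and Hochberg's method, and 0.05 was the threshold. CPM uses TMM-scaled totals. Shares were compared by an exact permutation test of group means. Membrane and secreted forms cannot be separated in gene counts. Sequences, exon lengths and coordinates are from GENCODE M21 (GRCm38, the mm10 assembly). The libraries of a group differed beyond sampling noise (lowest chi-squared per degree of freedom 13.6), so each counted as 1 sample.

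Named genes were the members, the up to 4 lowest p-values of each gene list that had a call and up to 2 of each other list, Jchain, and the 5 genes most correlated with Ighm and with Igkc, passing over other immunoglobulin genes, predicted genes and pseudogenes. A gene taken by this rule is not reported here. The lists were B cell, plasma cell, class switching, switch signals, antibody receptors, recombination and surrogate light chain, other constant genes, leukocytes, epithelium, acinar cells, and follicles with germinal centres. Alternatives were RLE and upper-quartile scaling, the robust fit, DESeq2 1.42.0, limma-voom (limma 3.58.1) with quality weights, no filter, at least 10 counts in 6 libraries, the replicate number as a block, and omission of each library. For shares they were plain counts, a minimum of 50 counts, the block, each library left out and, chosen after seeing the data, the shortest transcript as length.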

Additional observations from a re-analysis of the deposited data

Results flagged for a closer look

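In 36 sets of 6 values (each listed gene's CPM and each share in each group), 15 values lay far from the rest of their group. For normally distributed values, chance would flag about 1 in 20 such sets. Many of these levels and shares are skewed, so that rate does not hold here. The sets are also not independent, since a library's shares are made of the same counts. In WT replicate 4 the Ighg1 level was 11.62 CPM, where the next WT library had 0.298. Its Ighg1 share was 39.37%, its Ighg3 share 3.579% and its IgG share 44.31%. In WT replicate 5 the Ighg2b level was 3.474 CPM and its share 5.066%, and the Ighg2c share was 11.11%. WT replicate 3 had an Ighd level of 0.3263 CPM, from 7 counts, and WT replicate 1 an Ighd share of 1.498%, from 2 counts. WT replicate 6 had an Iglc2 level of 1.095 CPM and an Igkc share of 98.31% of Igkc and Iglc2.

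AHRKO replicate 1 had an Ighd level of 4.628 CPM, where the next AHRKO library had 0.798, and an Ighg2b level of 385.2 CPM, where the next had 124.6. AHRKO replicate 2 had an Ighd share of 0.2862%, from 4 counts. AHRKO replicate 4 had an Igkc share of 96.74% of the same pair.

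Ighe, the constant gene of IgE, belongs to none of the comparisons above. It had 0 counts in all 6 WT libraries. With 3 counts taken as the upper bound for a count of 0, the bounds were 0.0856 to 0.153 CPM. They cover counting error only. In AHRKO replicates 1, 4, 5 and 6 Ighe had 158, 11, 16 and 19 counts, that is 9.375, 0.627, 1.03 and 1.10 CPM, and in AHRKO replicates 2 and 3 it had 0 counts. It was too low to be tested.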

How the results depend on the processing

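Of the 7 tested genes, 6 were called; the replicate block left 2 (Ighg1 and Ighg2b) and limma-voom 2 (Ighg2b and Igkc). DESeq2 called 7 of 7, the stricter filter 7 of 8, no filter 8 of 9, and leaving out 1 library 5 to 8. With the block, adjusted p was 0.256 for Ighm, 0.0751 for Ighg2c, 0.0705 for Ighg3 and 0.103 for Igkc, and over all genes 1114 were higher and 1240 lower. Same-numbered libraries share only a number: their deviations correlated at -0.468 to 0.029, and 0 of 6 pairs correlated best with their own number. Upper-quartile scaling gave 2281 genes higher and 2292 lower. Over all genes, limma-voom called 3080 higher and 2948 lower and DESeq2 3005 and 2505, against 2451 and 2106 in the main fit. Without the filter 2155 were higher and 1884 lower, and with the stricter filter 2478 and 2121. Limma-voom gave Ighm a log2 fold change of 2.45 (adjusted p = 0.124). Fold changes of the 7 genes stayed above 0 in all 20 alternatives each; adjusted p ranged from 0.00582 to 0.256 for Ighm and from 9.77e-05 to 0.0253 for Ighg2b. Leaving out 1 library gave differences of -33.974 to -22.207 points for the Ighm share, 12.263 to 23.418 for Ighg2c and 26.467 to 38.373 for IgG, and these 3 passed the threshold only without AHRKO replicate 4. By plain counts, the exact permutation test gave p = 0.0844 for the Ighm share, 0.0541 for Ighg2b, 0.0281 for Ighg2c and 0.0325 for IgG. The shortest transcript as length gave 0.0844, 0.0541, 0.0281 and 0.0303. With the block, an exact test that flips signs of same-numbered differences gave 0.156, 0.0312, 0.0625 and 0.125, each with adjusted p of 0.281. The Igkc share difference ran from -0.689 to 0.027 and was above 0 only without AHRKO replicate 4 (adjusted p = 0.972, exact permutation test). Low counts limit WT: IgG shares there rest on 4 to 251 counts.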
